A study of Mus musculus with 2 samples.

Results

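The phagocyte NADPH oxidase is described here through 6 of its genes in bone marrow niche cells, namely Cybb, Cyba, Ncf1, Ncf4, Rac1 and Rac2. They were taken by symbol from a table of 54532 genes, and all 6 were found there. Expression was measured by RNA sequencing in 2 libraries, 1 from each group. Recipients in both groups were female CB6F1 mice (CD45.2+) that had received 2 irradiation doses of 4.0 Gy and, 4 hours afterwards, nucleated marrow cells of B6.SJL donors (CD45.1+). The BMT group received no other cells, whereas the aGVHD_V group was also given spleen cells of female C57BL/6 mice to produce acute graft-versus-host disease (aGVHD), an attack of donor lymphocytes on the tissues of the host. Stromal cells were sorted in both groups by depleting cells with CD45, lineage antigens or CD71, with Calcein AM and DAPI to leave out dead cells. Neither the number of mice behind each library nor the meaning of the V is given in the labels. With 1 library per group no difference has a replicate check, and no test was made.

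The enzyme is known for the respiratory burst of neutrophils, eosinophils and macrophages. It passes electrons from NADPH across the membrane to oxygen and so makes superoxide, which feeds the killing of microbes and also acts as a signal. Its membrane part is flavocytochrome b558, made of the catalytic chain gp91phox (Cybb) and the partner p22phox (Cyba). On activation the cytosolic subunits p47phox (Ncf1) and p40phox (Ncf4) move to the membrane together with a Rac GTPase, which is mainly Rac2 in neutrophils and can be the widely expressed Rac1 in other cells. Loss of the membrane or cytosolic subunits causes chronic granulomatous disease.

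The start regions of the membrane chains and of the organizer subunit Ncf1 are shown as the stretches where RefSeq places the start of transcription. RefSeq start regions (build GRCm38.p6), each with 250 bases before and 50 bases after the annotated start, were matched for 3 of the 6 genes. They lie at chrX:9469275-9469574 (Cybb), chr8:122432891-122433190 (Cyba) and chr5:134229576-134229875 (Ncf1), all on the minus strand. The Cyba and Ncf1 regions include the upper end of the gene position in the expression data, where a minus-strand gene begins. That of Cybb lies inside the gene position (9435252 to 9487771), so the annotations differ there. Capitals mark matches on either strand to GAGGAA (the core bound by the myeloid factor PU.1), CCAAT (the CCAAT box) and GGGCGG (the GC box bound by Sp1), which do not overlap each other here.
Cybb: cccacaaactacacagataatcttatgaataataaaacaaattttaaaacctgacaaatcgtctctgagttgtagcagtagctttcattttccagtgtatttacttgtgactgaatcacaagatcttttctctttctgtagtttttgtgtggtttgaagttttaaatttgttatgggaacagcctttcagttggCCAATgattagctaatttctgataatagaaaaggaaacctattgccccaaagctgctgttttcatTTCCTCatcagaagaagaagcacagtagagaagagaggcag
Cyba: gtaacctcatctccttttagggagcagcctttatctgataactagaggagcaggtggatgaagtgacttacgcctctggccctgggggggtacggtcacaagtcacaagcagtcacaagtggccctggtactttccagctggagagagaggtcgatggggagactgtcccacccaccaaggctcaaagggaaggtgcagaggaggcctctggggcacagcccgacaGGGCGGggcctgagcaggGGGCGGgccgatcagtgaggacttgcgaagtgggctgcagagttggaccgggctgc
Ncf1: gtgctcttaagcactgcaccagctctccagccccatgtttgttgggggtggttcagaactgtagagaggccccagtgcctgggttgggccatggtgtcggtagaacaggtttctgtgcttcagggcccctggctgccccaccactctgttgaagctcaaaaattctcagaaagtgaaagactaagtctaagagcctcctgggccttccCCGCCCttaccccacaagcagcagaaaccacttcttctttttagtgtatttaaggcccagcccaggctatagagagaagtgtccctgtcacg

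The Cybb region held CCAAT on the gene's own strand, beginning 56 bases before the start, and GAGGAA on the opposite strand, with its leftmost base at position 10 after the start. In the Cyba region GGGCGG occurred on the gene's strand, beginning 24 and 6 bases before the start. The Ncf1 region held GGGCGG on the opposite strand, at 42 bases before the start. Among 32851 RefSeq start regions of that length, 28.3% held GAGGAA, 37.4% held CCAAT and 35.7% held GGGCGG on either strand, so these matches are common and describe letters only. Ncf4, Rac1 and Rac2 were not matched.

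The ends of the Rac coding sequences are shown because Rac1 and Rac2 are close relatives whose reads have to be told apart. Over 579 coding bases of their principal GENCODE M21 transcripts (GRCm38) the genes were identical at 77.0%, and the longest identical run was 29 bases. In the last 75 coding bases, stop codon included, 32 bases differed (57.3% identical, against 80.0% before them). These bases encode the tail that guides each Rac to membranes. Capitals mark the differing bases.
Rac1: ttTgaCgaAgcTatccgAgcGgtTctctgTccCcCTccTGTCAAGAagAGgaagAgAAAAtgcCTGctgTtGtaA
Rac2: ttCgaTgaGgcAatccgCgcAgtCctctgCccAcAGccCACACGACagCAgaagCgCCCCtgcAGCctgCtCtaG

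The libraries held 10869191 (BMT) and 11299834 (aGVHD_V) reads over genes, recovered from the deposited FPKM (fragments per kilobase of gene length, scaled to library size). The markers of the labelled cell type were present in the BMT library and low in the other. Of 13 mesenchymal stroma genes 12 were lower by 2-fold or more with aGVHD_V (median -3.05, summed FPKM 1071 against 281, with Lepr at 0), among them the stem cell retention chemokine Cxcl12 at 346 against 14.6 FPKM. Hp (haptoglobin), also on that list, was at 337 against 248. Despite the depletion of blood cells, Ptprc, the gene of CD45, was at 9.28 against 7.85 FPKM. The values below therefore belong to all sequenced cells together. In such bulk libraries fewer cells of a type and less RNA per cell cannot be told apart.

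With the deposited scaling the membrane chains had slightly higher values in the aGVHD_V library, a sign that turned under other scalings given further on. Cybb (ENSMUSG00000015340, chromosome X, 9435252 to 9487771, minus strand of GRCm38, 13 exons in its principal transcript) stood at 54.8 FPKM in BMT (3858 reads) and 60.3 FPKM in aGVHD_V (3732 reads). The fold was 1.10, with a 95% interval of 0.852 to 1.41 that includes no difference. This and the following intervals are exact conditional binomial (Clopper-Pearson) ones, widened for reads that may stem from the same molecule, and cover counting error only. Cyba (ENSMUSG00000006519, chromosome 8, 122424776 to 122432930, minus strand, 6 exons) had 160.4 against 173, a fold of 1.08 (0.748 to 1.52) on 2021 and 1911 reads. On the log2(FPKM + 1) scale used for all differences here, these are 0.14 for Cybb and 0.10 for Cyba.

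The cytosolic subunits went separate ways in value. Ncf1 (ENSMUSG00000015950, chromosome 5, 134220053 to 134229625, minus strand, 11 exons), the organizer that carries the others to p22phox, stood at 76.6 FPKM in BMT (3404 reads) and 84.1 FPKM in aGVHD_V (3284 reads). Its fold was 1.10 (0.835 to 1.43), nearly that of Cybb. Ncf4 (ENSMUSG00000071715, chromosome 15, 78244801 to 78262580, plus strand, 10 exons), the subunit that binds the phosphoinositide of phagosome membranes, had 54.9 against 36.2 on 1344 and 779 reads. It was 1.52-fold lower in the aGVHD_V library, but the interval of 0.907 to 2.68 includes no difference. Ncf4 was thus the member with the largest difference (-0.59) and the fewest reads in each library.

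The GTPases also differed in sign. Rac2 (ENSMUSG00000033220, chromosome 15, 78559167 to 78572783, minus strand, 7 exons), the Rac of blood cells, stood at 87.8 FPKM in BMT (3305 reads) and 98.3 FPKM in aGVHD_V (3252 reads). Its fold was 1.12 (0.850 to 1.46). Rac1 (ENSMUSG00000001847, chromosome 5, 143503634 to 143528036, minus strand, 6 exons), which most cell types express, had 44.7 against 39.9 on 2439 and 1912 reads. It was 1.12-fold lower, with an interval of 0.800 to 1.60 that includes no difference. The log2 differences were 0.16 for Rac2 and -0.16 for Rac1.

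**Figure D1:**
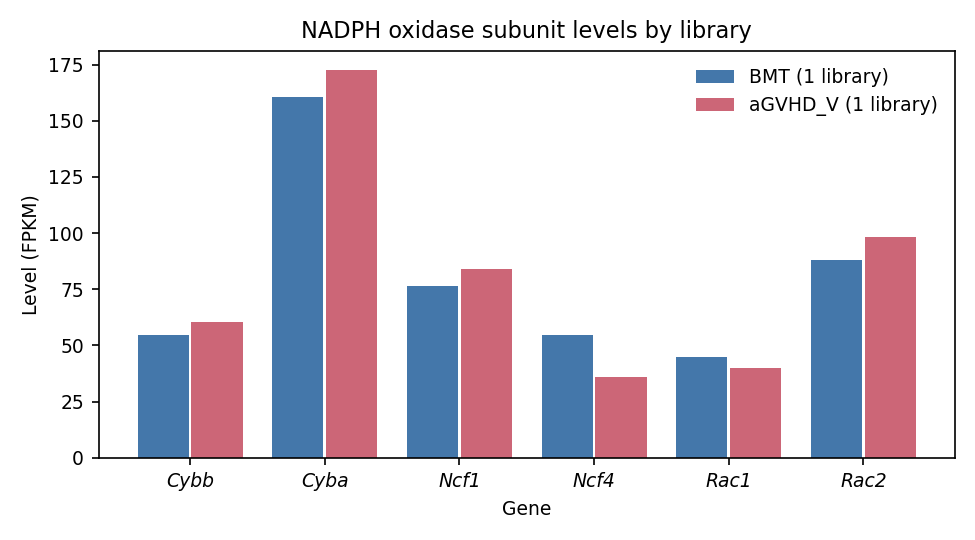
Level of each subunit in FPKM (vertical axis, from 0) for BMT and aGVHD_V, 1 library each, so no error bars are drawn. Cyba is the highest bar in both libraries (160.4 and 173), and Ncf4 is the gene with the largest gap (54.9 against 36.2).

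**Figure D2:**
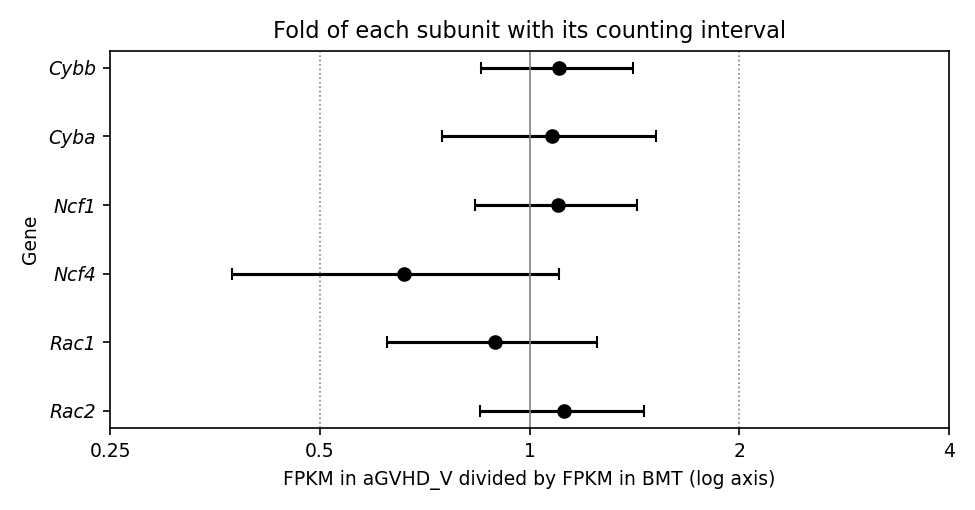
FPKM in the aGVHD_V library divided by FPKM in the BMT library for each subunit on a log axis, with widened 95% counting intervals as bars, a solid line at 1 and dotted lines at 2-fold. All 6 intervals cross 1, and that of Ncf4 reaches lowest, to 0.373.

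None of the 6 members differed by 2-fold or more (a difference of 1 or more on the log2(FPKM + 1) scale). Among the 12942 genes called measured (FPKM of at least 1 in either library), 28.1% differed that much (8.65% higher, 19.4% lower with aGVHD_V). Among the 5438 genes that reached an FPKM of 10 in either library, as all members did, the share was 14.7% (7.08% higher, 7.63% lower), so 0 of 6 is not far from that background. The members' differences ran from -0.59 to 0.16 with a median of 0.12, beside a median of -0.07 over all measured genes and 0.09 over those that reached an FPKM of 10. All 6 passed the filter on low values in both libraries.

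**Figure D3:**
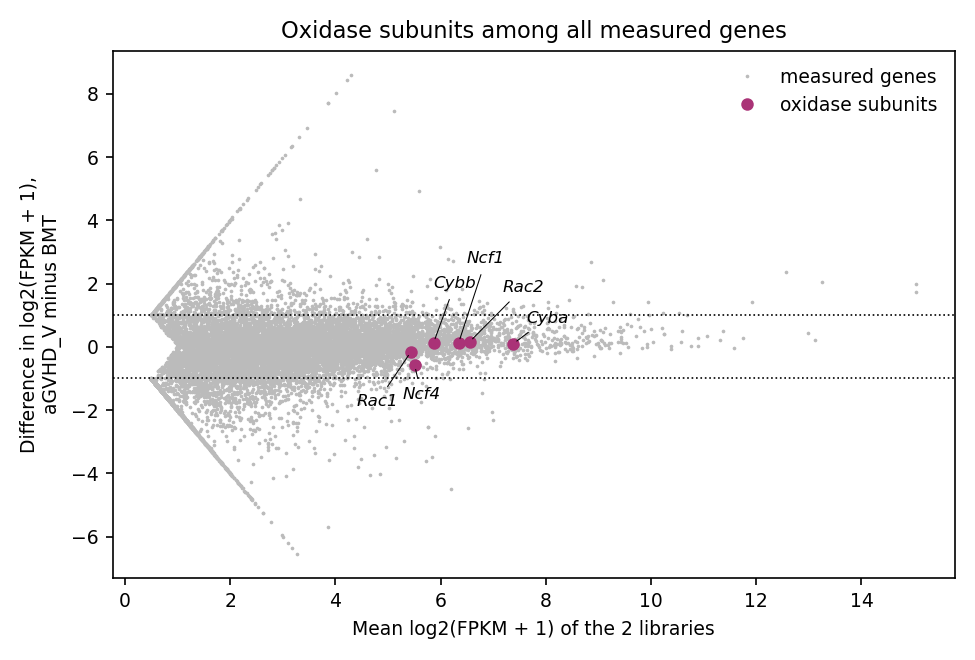
Difference in log2(FPKM + 1), aGVHD_V minus BMT, against the mean log2(FPKM + 1) of both libraries for the 12942 measured genes (grey) and the oxidase subunits (purple), with dotted lines at 2-fold. The 6 subunits lie between the dotted lines, from -0.59 (Ncf4) to 0.16 (Rac2), in the upper range of expression.

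The order of the levels was much the same in both libraries. Cyba was highest, followed by Rac2 and Ncf1, whose interval of the ratio includes 1 in each library (1.15, 0.954 to 1.38 for BMT, and 1.17, 0.836 to 1.63 for aGVHD_V). Ncf4 and Cybb could not be separated in the BMT library (ratio 1.002, 0.786 to 1.27). In the aGVHD_V library Ncf4 came last with the deposited gene lengths, at a level that could not be separated from that of Rac1 (ratio of Rac1 to Ncf4 1.10, 0.622 to 2.04). The other neighbours in each order had intervals above 1, the closest being Ncf1 over Cybb in the aGVHD_V library (from 1.01) and Cybb over Rac1 in the BMT library (from 1.01). The members together took 0.151% of the reads with BMT and 0.132% with aGVHD_V.

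Level ratios of partner subunits within a library do not depend on how the libraries were scaled. The level of Cyba was 2.93 times that of Cybb with BMT (2.38 to 3.59) and 2.86 times with aGVHD_V (1.94 to 4.17). The ratio of Rac2 to Rac1 was 1.96 (1.61 to 2.40) against 2.46 (1.67 to 3.67). That of Ncf1 to Ncf4 was 1.40 (1.10 to 1.79) against 2.32 (1.37 to 4.15), a 1.66-fold shift. The intervals of the libraries overlapped for all 3 ratios. Levels between genes rest on the deposited gene lengths, which were 1.02 times (Rac2) to 1.40 times (Cyba) the length of the principal GENCODE transcript. With transcript lengths the Cyba to Cybb ratio was 3.35 and 3.27, and Ncf1 passed Rac2 (103 against 89.7 in the BMT library). Ncf4 also passed Rac1 in the aGVHD_V library (49.9 against 43.1), so that Rac1 came last in both libraries.

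Cybc1, the chaperone Eros needed for a stable flavocytochrome and named here after its values were seen, had 11.9 FPKM in BMT and 18.6 FPKM in aGVHD_V. It was 1.57-fold higher with aGVHD_V, but its interval of 0.865 to 2.75 includes no difference. Its difference stayed above 0 under all settings, and came down to 0.07 with the aGVHD_V library alone rescaled to the BMT sum. Cybc1 is among 25 listed cofactors and activators of the oxidase, of which 24 were within 2-fold and 1, Vav2, was lower by more than that (median difference 0.036).

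Of these 25 genes, 4 had an interval above 1 and none below 1. Among the 10997 measured genes with reads in both libraries 6.99% had an interval above 1 and 4.06% below 1, and among the 5306 of them that reached an FPKM of 10 the shares were 13.1% and 5.41%, so 4 of 25 is near that background. They were Rap1a, the GTPase that copurifies with the flavocytochrome (40.6 against 67.0, 1.65-fold, 1.12 to 2.40), the Rac exchange factor Prex1 (12.1 against 18.1, from 1.03) and the calcium-binding proteins S100a8 and S100a9. Prex1 was named after its values were seen. S100a9, the most abundant gene of the list, had 6959 against 9474, 1.36-fold (1.27 to 1.46), and its difference turned to -0.13 with equal FPKM sums. The difference of S100a8 also turned, from 0.28 to -0.29. The difference of Prex1 fell from 0.54 to 0.0019 with the aGVHD_V library alone rescaled, whereas that of Rap1a stayed at 0.14 or more under all settings. S100a8 and S100a9 are also on the neutrophil list. Lower in value were the protein kinase C gene Prkcb (5.00 against 2.76) and the Rac exchange factors Vav2 (2.07 against 0.298) and Vav3 (2.13 against 0.687). The intervals of the folds of Prkcb, Vav2 and Vav3 include no difference. Vav3 counted as within 2-fold only on the log2(FPKM + 1) scale, since in FPKM it was 3.10-fold lower.

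All 9 genes of the other NADPH oxidases and their partners (Nox1, Nox3, Nox4, Noxa1, Noxo1, Duox1, Duox2, Duoxa1 and Duoxa2) had no reads in either library. A count of 0 allows up to 42 reads with BMT and 132 with aGVHD_V, that is, 3 counts of the read number that detected genes most often had.

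Of 7 enzymes that act on superoxide and peroxide 6 were measured, and all 6 were within 2-fold (median -0.18). Lpo was at 0 in both libraries. Cat, the peroxide-removing catalase, was 1.70-fold higher in the aGVHD_V library (65.2 against 111, interval 1.26 to 2.27), and Epx, the eosinophil peroxidase, was 1.40-fold lower (167 against 119, 1.10 to 1.80). The difference of Cat fell from 0.76 to 0.18 with the aGVHD_V library alone rescaled to the BMT sum. Of the 6, 1 had an interval above 1 and 1 below 1, beside 6.99% and 4.06% of measured genes with reads in both libraries. Mpo, the neutrophil peroxidase that turns peroxide into hypochlorous acid, had 213 against 209.6 (fold 0.986, 0.829 to 1.17). The superoxide dismutases Sod2 (9.85 against 8.21) and Sod3 (2.65 against 2.13) had intervals that include no difference.

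Transcription factors known to act on the oxidase genes were lower in value for 8 of 10 (median -0.58), and 3 were lower by 2-fold or more. Over all 12942 measured genes 6975 were lower in value (median -0.07) and 19.4% were lower by 2-fold or more. A share of 3 of 10 is thus not far from that background. Cebpa, a factor of early myeloid and of fat cells, had 35.04 against 8.75, 4.00-fold lower (1.72 to 11.7). Irf1, an interferon-responsive factor, was 1.63-fold lower (47.9 against 29.4, 1.09 to 2.52). Irf8, which directs monocyte fate, had 6.29 against 2.42, 2.60-fold lower with an interval of 0.949 to 9.75 that includes no difference, and Hoxa10 was at 1.92 against 0, too low for a bound. Cebpb, the most abundant of the list, was at 192 against 195. Spi1, which encodes PU.1 and was named after its values were seen, had 43.4 against 47.5, a difference of 0.13 beside 0.14 for Cybb.

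The medians of the phagocyte marker lists ran from -0.47 (eosinophil) to 0.26 (neutrophil), and within each list the genes spread more widely than the oxidase genes. All 18 neutrophil genes were within 2-fold, with a median of 0.26 (-0.31 with equal FPKM sums), a summed FPKM of 16204 against 21861, and none at 0 in either library. Of the 18 neutrophil genes, 8 had an interval above 1 and none below 1. Among the 5306 genes with reads in both libraries that reached an FPKM of 10, 13.1% had an interval above 1 and 5.41% below. Many reads, such as the 44054 of S100a9 with BMT, narrow an interval. The largest difference of the 8 was that of the granule peptide gene Camp, named after its values were seen (1170.2 against 2335 FPKM, 1.995-fold, 1.77 to 2.25). Some of the 8 turned negative with equal FPKM sums, such as S100a8, S100a9 and Ltf (0.23 to -0.35, named after its values were seen). Others, such as Camp, did not. Of 17 monocyte and macrophage genes 15 were measured and 14 of them were within 2-fold, the exception being the mannose receptor Mrc1 at 8.22 against 2.83, chosen after its values were seen (median -0.05, summed FPKM 1293 against 1395, Vsig4 at 0 in both libraries and Timd4 in the aGVHD_V library). Of the 15, 7 had differences above 0 and 8 below 0. Adgre1 (5.73 against 2.72) and Cd163 (3.28 against 1.22), named after their values were seen, were within 2-fold only on the log2(FPKM + 1) scale. In FPKM they were 2.10-fold and 2.69-fold lower, with intervals that include no difference. Lyz2 (lysozyme) had 942 against 992, and Ly6c2, a surface marker of monocytes, 93.2 against 122. Of 9 eosinophil genes 7 were measured and 6 of those were within 2-fold, the exception being Prg3 at 46.3 against 21.1, chosen after its values were seen (median -0.47, summed FPKM 2299 against 2172, with Ccr3 and Il5ra at 0 in aGVHD_V), and Prg2, the major basic protein, had 1727 against 1751. The members' median lay 0.14 below that of the neutrophil list and 0.17 above that of the monocyte and macrophage list. The latter gap was 0.046 with equal FPKM sums and 0.30 with an FPKM minimum of 5. Cybb, Cyba, Ncf1 and Rac2 lay between those medians, whereas Rac1 and Ncf4 lay below both (Ncf4 by 0.85 and 0.54). With an FPKM minimum of 5 the monocyte and macrophage median was -0.18, and Rac1 (-0.16) lay above it. The part of each cell type in these levels was not tested.

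With the deposited scaling, the list medians of markers of other cells lay outside the range of the oxidase genes (-0.59 to 0.16), although single markers such as Ppbp lay within it. The neutrophil median (0.26) also lay outside this range, and Ncf4 alone set its lower end. The range therefore does not set the phagocyte lists apart from the others. Of 9 measured B cell genes all 9 were lower by 2-fold or more in value (median -2.92, summed FPKM 88.3 against 1.505, with 8 of 10 at 0 in the aGVHD_V library), among them the receptor chains Cd79a (22.2 against 0.193) and Cd79b (23.0 against 0). Of these 9, 2 had an interval below 1, and 7 were at 0 with aGVHD_V. With these zeros set to the floor of 132 reads, the BMT value was 0.493 to 2.94 times the floor. Not all 9 are thus shown to be 2-fold lower. Endothelial genes were lower by 2-fold or more in value for 8 of 10 (median -1.37, summed FPKM 104 against 24.4, with Cdh5, Kdr, Cldn5 and Tek at 0 in aGVHD_V), with the fenestral protein Plvap at 32.0 against 7.17 and the receptor Eng at 24.95 against 10.2. Of these 10, 4 had an interval below 1. For the 4 at 0, the BMT value was 0.619 (Tek) to 3.71 (Cdh5) times the floor. Of 9 measured T and NK cell genes 2 were higher by 2-fold or more (median 0.49, summed FPKM 44.6 against 87.6, with Ncr1 at 0 in both, Klrb1c in BMT and Cd247 in aGVHD_V). They were the protease Gzmb at 13.8 against 41.3 and the receptor chain Cd3d at 0.954 against 6.77, chosen after its values were seen, whose 21 and 131 reads lie under the floor and whose interval (0.706 to 138) includes no difference, whereas the kinase Lck was at 7.01 against 8.33. In FPKM, Cd3e and Cd4, named after their values were seen, were 2.27-fold and 2.67-fold higher, with intervals that include no difference. Erythroid genes had a median of 1.21 (6 of 10 higher by 2-fold or more, summed FPKM 44771 against 165633, none at 0), with Hba-a1 at 17046 against 67186 and Hbb-bs at 18547 against 61502. Platelet genes had a median of 1.07 (5 of 9 higher, 3 lower, summed FPKM 92.5 against 284, with Gp1ba and Treml1 at 0 in aGVHD_V), with Pf4 at 28.4 against 191 and Ppbp at 29.2 against 28.3. Of these 9, 3 had an interval above 1 and none below 1. The 3 lower ones were Gp1ba and Treml1, too low for a bound, and Tubb1, named after its values were seen. Tubb1 lay under the floor, with an interval that includes no difference. Over all measured genes 8.65% were higher and 19.4% lower by 2-fold or more.

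**Figure D4:**
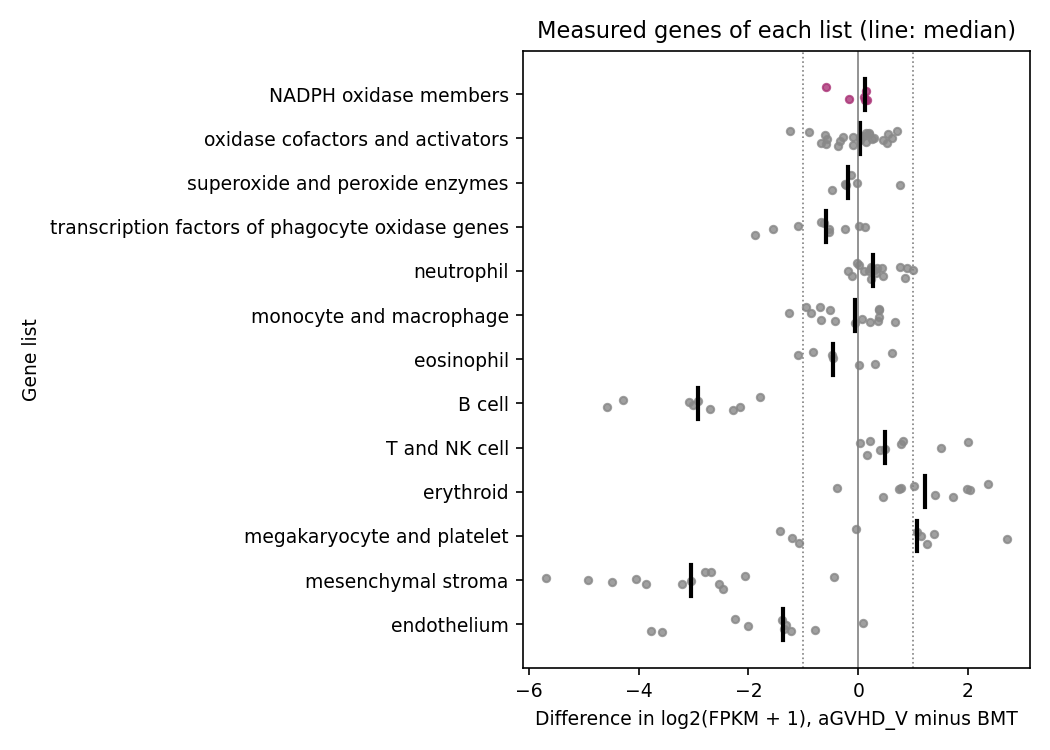
Difference in log2(FPKM + 1), aGVHD_V minus BMT (horizontal axis), for each measured gene of the oxidase subunits (purple) and of the other gene lists (grey), with the median of each list as a black line and dotted lines at 2-fold. The subunits cluster near 0 (median 0.12), the neutrophil list lies slightly to the right (0.26), and the B cell and mesenchymal stroma lists lie far to the left (-2.92 and -3.05).

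The sign of the members' differences depended on the scaling. The library size that the deposited FPKM imply was 1.12 times the reads recovered over genes with BMT and 0.944 times with aGVHD_V. With the deposited FPKM 4 members had values above 0, whereas all 6 lay below 0 when the libraries were scaled without hemoglobin, mitochondrial and ribosomal protein genes, by all recovered reads, by the upper quartile, to equal FPKM sums, or with the aGVHD_V library alone rescaled to the BMT sum. With equal sums the median gene moved by -0.55, the members ran from -1.17 to -0.41, and Ncf4 passed the 2-fold threshold. Differences between members hardly moved. This was fixed in advance, since each scaling changes all genes of a library by the same factor or shift. Only the pseudocount can alter such gaps slightly. Cybb, Cyba, Ncf1 and Rac2 stayed within 0.05 to 0.06 of one another over all settings, Ncf4 stayed 0.67 to 0.73 below Ncf1, and Rac1 stayed 0.30 to 0.33 below Rac2.

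**Figure D5:**
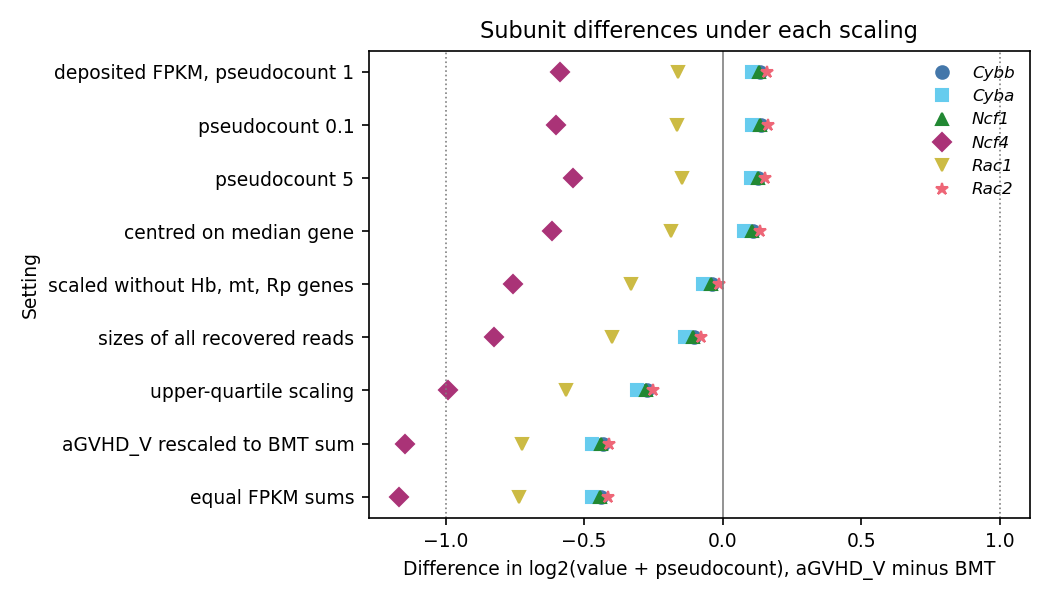
Difference of each subunit, aGVHD_V minus BMT, in log2(value + pseudocount) (horizontal axis) under each scaling or pseudocount (rows), with dotted lines at 2-fold. The points of Cybb, Cyba, Ncf1 and Rac2 overlap in every row while the whole set shifts to the left, down to -1.17 for Ncf4 with equal FPKM sums.

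The genes nearest in pattern were taken as those with the smallest Euclidean distance in log2(FPKM + 1) over the 2 libraries, 2 for each member. They were Srsf3 and Dgat1 for Cybb, Arpc2 and Arpc5 for Cyba, Kpnb1 and Tnfaip2 for Ncf1, Ergic3 and Plp2 for Ncf4, Sdhb and Abhd16a for Rac1, and Itgb2 and Btg2 for Rac2. The distances ran from 0.011 (Kpnb1) to 0.081 (Plp2). Itgb2, the shared chain of leukocyte integrins, was at 89.4 against 97.6 FPKM beside 87.8 against 98.3 for Rac2. Arpc2 and Arpc5, subunits of the actin-branching Arp2/3 complex, had 156 against 169 and 156 against 175. A distance of 0.1 or less was shared by 26 genes for Cybb and by 4 for Ncf4, so with 2 libraries this likeness singles out no gene.

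Other genes overlap some members in position, and strand use in counting is not given. Rac1 overlaps Daglb on the opposite strand (292 and 270 reads against 2439 and 1912 of Rac1), and Ncf1 overlaps Gtf2ird2 on the opposite strand (270 and 193 reads). Rac1 also overlaps the unnamed gene Gm42502 (40 reads in the BMT library), and Cyba overlaps Gm20388, which had no reads. No gene of the table overlaps Cybb, Ncf4 or Rac2.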

How the data were processed

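RNA of sorted marrow stromal cells was sequenced in 1 BMT and 1 aGVHD_V library, grouped by their titles. The authors deposited FPKM, per the file headers, with the gene length in bases beside them (other columns hold names and positions). The submitters' processing notes name edgeR 3.18.1, GRCm38 and mm10. No source used here gives the aligner, the counter or the use of strand. The table has 1 more column of values that fits no sample label, and it was left aside.

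FPKM multiplied by gene length and divided by 1000 gave whole multiples of 1 step per library for 100% of values above 0 (tolerance 0.05), from which reads were recovered. These steps imply library sizes of 12127105 (BMT) and 10661688 (aGVHD_V), the latter smaller than the 11299834 reads recovered over genes in that library. The read number that detected genes most often had (moving window of 7, leaving out numbers below 4) was 14 in the BMT and 44 in the aGVHD_V library. Reads were divided by it before the 95% intervals were computed, and 3 such counts set the floor. No count model was fitted, since 1 library per group leaves no residual spread. The difference is log2(FPKM + 1) in aGVHD_V minus BMT, and it understates differences of low genes. Python 3.11.15 with scipy 1.17.1 was used. Read recovery and intervals were run on simulated reads that came in whole multiples of 14 (BMT) and 44 (aGVHD_V). Since the intervals divide by the same numbers, that run checks the computation only. It cannot show that the widening suits the real reads.

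The members and lists were chosen with earlier results of these data known. Named by rule were all members, from each pathway list up to 4 measured genes with the largest absolute difference and the most abundant gene, the 2 most abundant genes of each marker list, Ptprc, and the 2 nearest genes of each member. Exceptions are named as such. Some listed genes are not reported here. For symbols on several rows, the row richest in reads was used. 8 alternative settings were planned and 3 were added after seeing the data.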

Additional observations from a re-analysis of the deposited data

How the results depend on the processing

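Scaling changed the most values. With each library at an equal FPKM sum of 1000000 the differences were -0.44 (Cybb), -0.47 (Cyba), -0.44 (Ncf1), -0.74 (Rac1) and -0.41 (Rac2), with a members' median of -0.46, 1 member outside 2-fold (Ncf4, -1.17), neutrophil and superoxide enzyme medians of -0.31 and -0.74, and 6579 of all measured genes outside 2-fold against 3631. With the aGVHD_V library alone rescaled to the BMT sum, chosen after seeing the data, they were -0.43, -0.47, -0.44, -0.72 and -0.41 in the same order, with a median of -0.45, again 1 member outside 2-fold (Ncf4, -1.15), and list medians of -0.31 and -0.65. Upper-quartile scaling gave -0.27 (Cybb), -0.28 (Ncf1), -0.25 (Rac2) and a neutrophil median of -0.15. Genes outside 2-fold numbered 859 with a pseudocount of 5 and 1475 with an FPKM minimum of 5. Lower genes made up 69.2% of those outside 2-fold, and from 58.2% (FPKM minimum of 5) to 87.1% (aGVHD_V library rescaled) under the alternatives. In all, 25 of 166 recomputed values moved beyond their tolerance and 141 did not. For single genes and ratios the tolerance was the counting interval, and for counts it was 1.5 times. For medians, which have no such interval, it was the median half-width of the intervals of the genes in the list. Some of the 141 could not move, such as the members' median without a filter or with an FPKM minimum of 5. The partner ratios stayed within their intervals with transcript lengths and other pseudocounts. No paired analysis was possible because each group has 1 library, which also leaves no replicate to omit. Depth limits Ncf4 most, with 17.7 modal counts in the aGVHD_V library.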
